A study of Rattus norvegicus with 3 samples.

Results

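The antioxidant enzymes described here are the products of 10 genes: the superoxide dismutases Sod1, Sod2 and Sod3, catalase (Cat), the glutathione peroxidases Gpx1, Gpx3 and Gpx4, and the peroxiredoxins Prdx1, Prdx2 and Prdx3. They were chosen by name, from probe sets of an Affymetrix rat whole-transcript array that carry exactly 1 of these symbols, and they are 10 of 14506 genes that could be named. Each had at least 1 such probe set; Prdx1 had 2, of which the brighter was used. All 10 were brighter than the lower limit for comparison, a mean of 5.72 (log2) over the arrays, which 10154 genes passed.

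RNA came from the soleus, a load-bearing calf muscle rich in slow oxidative fibres, of rats aged 7 weeks whose strain is labelled Brown. In group DN the muscle was denervated, in group TS the rats were suspended by the tail so that the hind limbs carried no load, and group Ct had neither. All groups, Ct included, were irradiated continuously for 2 weeks to 50 mSv, so no value here measures irradiation itself; when and in which leg the nerve was cut is not given in the labels. RNA of 6 rats was pooled for each group and read on 1 array, so there is no replicate, no test between groups was possible, and each difference describes these pools. In whole muscle, fewer cells of a type and less RNA per cell cannot be told apart. The 8 skeletal muscle markers read between 12.24 and 13.99 (log2) on all 3 arrays. The muscle creatine kinase Ckm was the 1 of them at least 1.5-fold apart, reading 12.24 in DN, 13.30 in TS and 13.36 in Ct, or -1.12 in DN minus Ct and -1.06 in DN minus TS, and the slow myosin Myh7 read 13.06 in DN, 13.24 in TS and 13.62 in Ct.

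Superoxide dismutases turn superoxide, a by-product of respiration and of oxidase enzymes, into hydrogen peroxide. Catalase, glutathione peroxidases and peroxiredoxins then remove the peroxide, the second with glutathione and the last with thioredoxin as the source of electrons. Oxidative muscle fibres are known for a high content of these enzymes, and their members divide by place: Sod1, Prdx1 and Prdx2 in the cytosol, Sod2 and Prdx3 in mitochondria, catalase in peroxisomes, and Sod3 and Gpx3 outside the cell.

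Only 2 of the 10 enzymes stood at least 1.5-fold apart (0.58 on the log2 scale) from Ct in any comparison, and both were glutathione peroxidases. In denervated soleus Gpx1 was lower by 2.32-fold and Gpx3 higher by 2.10-fold. In suspended soleus Gpx3 was higher by 1.64-fold and no enzyme was 1.5-fold lower. Set directly against TS, DN had Gpx1 lower by 2.04-fold and no enzyme 1.5-fold higher. Beside these counts, the 10154 genes as a whole passed the 1.5-fold limit upwards in 4.93% and downwards in 5.53% for DN against Ct. For TS against Ct the shares were 5.89% upwards and 2.68% downwards, and for DN against TS 3.2% upwards and 5.93% downwards. A count of 1 in 10 in a direction is near these shares, so the counts say nothing about the enzymes as a set.

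**Figure D1:**
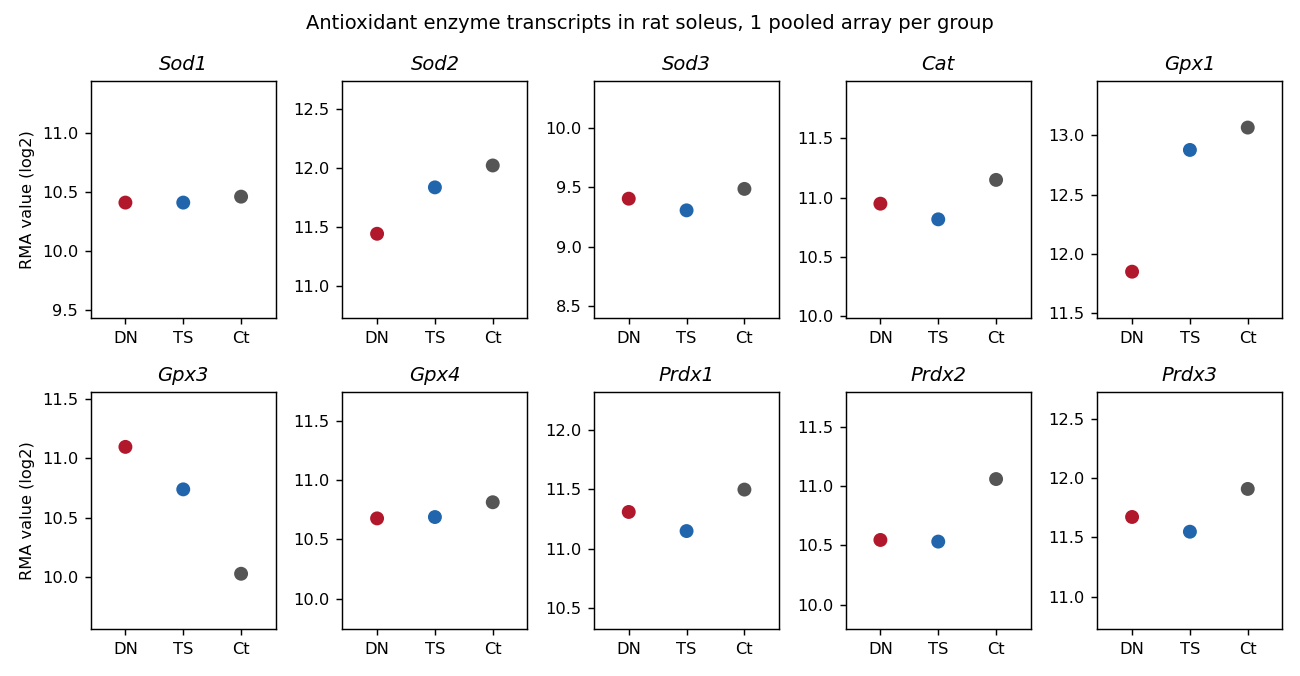
RMA value (log2, vertical axis) of each enzyme on the DN, TS and Ct arrays, 1 point per array of RNA pooled from 6 rats; every panel spans 2 log2 units around its own values, so heights can be compared between groups but not between genes. Gpx1 stands apart as low in DN (11.85), and Gpx3 is higher in DN (11.10) and TS (10.74) than in Ct (10.03).

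The other enzymes lay a little below Ct. The median difference over the 10 was -0.19 for DN minus Ct, where all genes had a median of 0.00, and -0.19 for TS minus Ct, where all genes had 0.02. In DN 9 of the 10 read lower than Ct by any amount, against 24.3% of all genes and 31.8% of the 2411 genes at least as bright as the dimmest enzyme, Sod3. In TS 9 of the 10 also read lower than Ct, against 22.7% of all genes and 35.4% of the bright ones. Both comparisons use the same Ct array. The RMA summary returned exactly equal values for 42.9% of genes in DN and Ct and 24.7% in TS and Ct. The background shares of lower genes depend on such values. With each array centred on its median over the genes compared, 9 of the 10 were again lower. So were 68.1% of all genes in DN and 65.1% in TS, and 56.5% and 65.0% of the bright ones. With quantile normalization 9 of the 10 were also lower. The shares were then 64.8% of all genes and 45.4% of the bright ones in DN, and 56.1% and 49.8% in TS. The median of DN minus TS over the enzymes was 0.06, beside -0.0028 for all genes, with 3 lower, 6 higher and Sod1 equal.

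**Figure D2:**
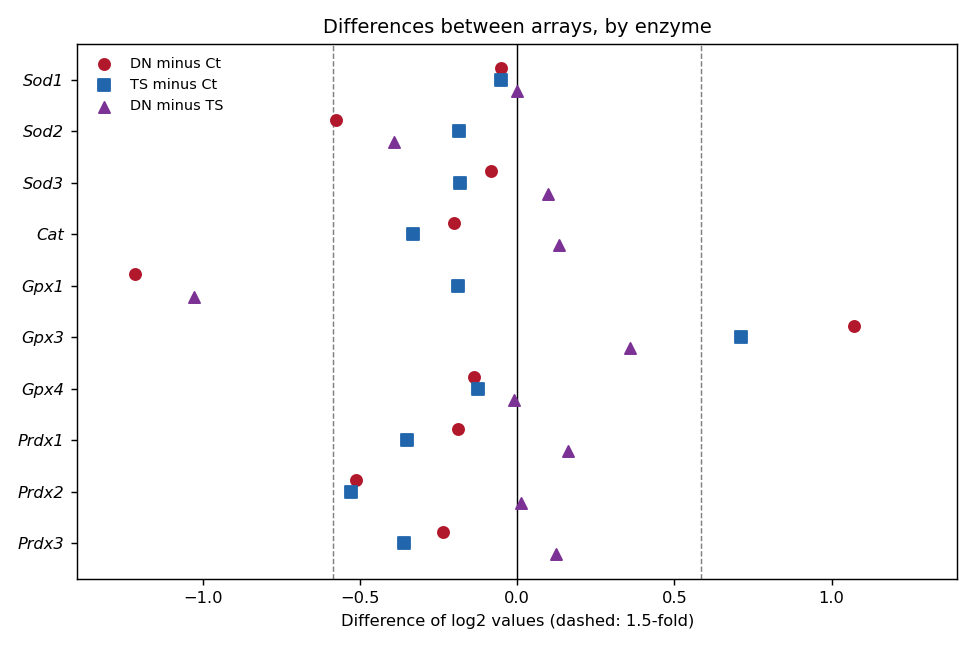
Difference of log2 values for each enzyme (rows) in DN minus Ct (red circles), TS minus Ct (blue squares) and DN minus TS (purple triangles); dashed lines mark 1.5-fold. Gpx3 lies to the right in both comparisons with Ct (1.07 and 0.71), Gpx1 far to the left in DN minus Ct (-1.22) and in DN minus TS (-1.03), and the other 8 enzymes lie between -0.58 and -0.05 against Ct.

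Among superoxide dismutases the mitochondrial enzyme showed the widest difference. Sod2, the manganese enzyme of the mitochondrial matrix, read 11.44 in DN, 11.84 in TS and 12.02 in Ct. DN was the lowest, at -0.58 against Ct or 67.1% of its level, just short of 1.5-fold, and removing a trend on mean expression took it just past that limit (-0.59). TS lay between them, -0.18 below Ct. Sod1, the copper and zinc enzyme of the cytosol, read exactly the same in DN and TS, 10.41, and 10.46 in Ct, a difference of -0.05 in each comparison. Sod3, the form secreted into the matrix around cells, read 9.40 in DN, 9.31 in TS and 9.49 in Ct, so that its largest difference was -0.18. The copper chaperone Ccs, which loads Sod1, stood at -0.06 in DN minus Ct and 0.20 in TS minus Ct. Sod1 and Sod3 thus spanned less than 0.2 (log2) over the 3 pools.

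The glutathione peroxidases went apart. Gpx1, the selenium-containing enzyme of cytosol and mitochondria that reduces hydrogen peroxide, read 11.85 in DN, 12.88 in TS and 13.07 in Ct. The DN pool stood alone at the low end, with 43.1% of the Ct level and 49.1% of the TS level, while TS lay -0.19 from Ct. With a difference of -1.22 from Ct, Gpx1 was the 143rd lowest of 10154 genes in DN, and with -1.03 from TS it was the 159th lowest in DN minus TS. The muscle marker Ckm was likewise low in DN alone, but it was the 1 of 8 skeletal muscle markers past 1.5-fold. The median of the 8 was -0.25 in DN minus Ct, with values from -1.12 (Ckm) to 0.09 (Mb). How far muscle RNA as a whole bears on Gpx1 was not tested. The Ct value of Gpx1 lay 0.92 below the highest value of that array.

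Gpx3, the secreted peroxidase of blood plasma, went the other way. It read 11.10 in DN, 10.74 in TS and 10.03 in Ct, highest in DN and lowest in Ct. The difference from Ct was 1.07 in DN, the 204th highest of all genes, and 0.71 in TS, the 365th highest. DN exceeded TS by 0.36. With arrays centred on their medians, which lowers every TS minus Ct difference by 0.13, Gpx3 in TS stood at 0.58, just under 1.5-fold, and Prdx2 became the enzyme past it at -0.66.

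Gpx4, which reduces lipid hydroperoxides within membranes, varied least of the 3 glutathione peroxidases. It read 10.68 in DN, 10.69 in TS and 10.81 in Ct, with differences of -0.14 and -0.12 from Ct and -0.01 between DN and TS. Genes of the same family that were listed beside the members did not resemble Gpx1: Gpx7, a peroxidase of the endoplasmic reticulum, read 9.38 on every array, and Gpx8, its close relative, stood at 0.04 in DN minus Ct and 0.26 in TS minus Ct. Gpx2, Gpx5 and Gpx6 read below the limit for comparison.

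The stretches before the transcription starts of Gpx1 and Gpx3 are shown because these genes stood furthest from Ct in opposite directions, and those of Prdx1 and Sod2 because they alone held the antioxidant response element core. They come from RefSeq (assembly GRCr8), which had an entry for 9 of the 10 genes; the Gpx1, Gpx3 and Prdx1 stretches run from chr8:117905212-117905461, chr10:39529085-39529334 and chr5:135383656-135383905 on the plus strand, and the Sod2 stretch, shorter, from chr1:50050169-50050228 on the minus strand. Capitals mark matches on either strand to the antioxidant response element core TGACNNNGC, which the factor Nrf2 binds, the AP-1 site TGANTCA, the GC box GGGCGG and the E-box CACGTG, each line reading 5′ to 3′ and ending at the base before the start.
Gpx1: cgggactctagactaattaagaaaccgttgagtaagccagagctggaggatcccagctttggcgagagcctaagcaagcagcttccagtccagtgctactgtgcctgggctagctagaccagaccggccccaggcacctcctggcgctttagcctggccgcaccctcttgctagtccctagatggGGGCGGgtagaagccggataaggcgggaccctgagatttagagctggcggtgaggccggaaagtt
Gpx3: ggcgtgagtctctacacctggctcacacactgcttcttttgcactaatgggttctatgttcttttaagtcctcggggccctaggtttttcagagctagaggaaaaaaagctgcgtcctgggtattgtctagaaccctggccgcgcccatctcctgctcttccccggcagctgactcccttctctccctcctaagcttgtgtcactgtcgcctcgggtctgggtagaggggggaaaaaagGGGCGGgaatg
Prdx1: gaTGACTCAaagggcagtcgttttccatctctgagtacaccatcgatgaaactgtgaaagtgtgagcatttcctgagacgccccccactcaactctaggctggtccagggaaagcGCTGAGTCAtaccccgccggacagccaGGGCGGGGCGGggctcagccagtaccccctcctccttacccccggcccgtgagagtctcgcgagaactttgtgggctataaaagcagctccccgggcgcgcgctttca
Sod2: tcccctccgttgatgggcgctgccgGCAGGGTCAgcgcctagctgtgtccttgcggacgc

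In the 250 bases before the start, the response element core was found in Prdx1, 135 bases before the start and overlapping an AP-1 site, and in Sod2, 35 bases before it. Those were 2 of the 11 promoters listed for the 9 genes. The core was found in 10.1% of all 33469 rat promoters listed and in 13.0% of the 8893 belonging to genes compared here. AP-1 sites were found in Prdx1 only, in 1 of the 11 promoters, against 6.34% of all promoters and 4.68% of those of compared genes. The E-box was found in none, against 5.59% and 8.1%. A GC box was found in 8 of the 9 genes, Cat being the exception, and in 9 of the 11 promoters. The shares were 30.5% of all promoters and 58.3% of those of compared genes. Gpx1 and Gpx3 each held 1 GC box, 65 and 11 bases before the start, and no other match.

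Catalase, which breaks down hydrogen peroxide in peroxisomes without a helper substrate, read 10.95 in DN, 10.82 in TS and 11.15 in Ct. Both DN and TS lay below Ct, by -0.20 in DN and -0.33 in TS. Of 16 other peroxisomal genes compared, out of 22 listed, 1 was at least 1.5-fold lower in DN and none higher. In TS 2 were lower and 1 higher. The shares of all genes were 5.53% lower and 4.93% higher in DN, and 2.68% and 5.89% in TS. The medians of the 16 were -0.06 in DN and -0.02 in TS. Phyh, which starts the breakdown of branched fatty acids, was the lowest in both, at -0.96 in DN minus Ct and -0.89 in TS minus Ct. The fatty acid transporter Abcd3 stood at -0.22 in DN and -0.73 in TS, and the bifunctional beta-oxidation enzyme Ehhadh at -0.47 in DN and 0.70 in TS. Under centring Ehhadh in TS came to 0.57, and no peroxisomal gene was then 1.5-fold higher.

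All 3 peroxiredoxins were lower than Ct in each comparison, none by 1.5-fold. Prdx2, a cytosolic form abundant in red blood cells, read 10.54 in DN, 10.53 in TS and 11.06 in Ct. DN and TS lay side by side, at 70.0% and 69.4% of the Ct level (-0.51 and -0.53), and the TS difference was the 316th lowest of all genes. Prdx3, the mitochondrial form, read 11.67 in DN, 11.55 in TS and 11.91 in Ct, with differences of -0.24 and -0.36.

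Prdx1, the other cytosolic form, read 11.31 in DN, 11.15 in TS and 11.50 in Ct on its brighter probe set, and 11.21 in DN, 11.05 in TS and 11.46 in Ct on the dimmer. The order of the pools was the same on both, and the differences from Ct were -0.19 and -0.25 in DN and -0.35 and -0.41 in TS. Of the peroxiredoxins outside the 10 members, the mitochondrial Prdx5 read 9.51 in DN, 9.91 in TS and 10.54 in Ct, or -1.03 and -0.64 from Ct. Prdx4 of the secretory pathway (0.00 in DN and -0.08 in TS) and Prdx6 (0.15 in DN and -0.13 in TS) stood near Ct. Over the 8 other peroxidase and repair genes compared, of 11 listed, Prdx5 was the 1 past 1.5-fold in DN. In TS it was joined by Msra, a methionine sulphoxide reductase, at 0.62. Msra in TS came to 0.49 under centring and 0.52 with a trend removed or quantile normalization. The medians of the 8 were -0.03 in DN and 0.00 in TS. The shares of all genes were 5.53% lower and 4.93% higher in DN, and 2.68% and 5.89% in TS.

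**Figure D3:**
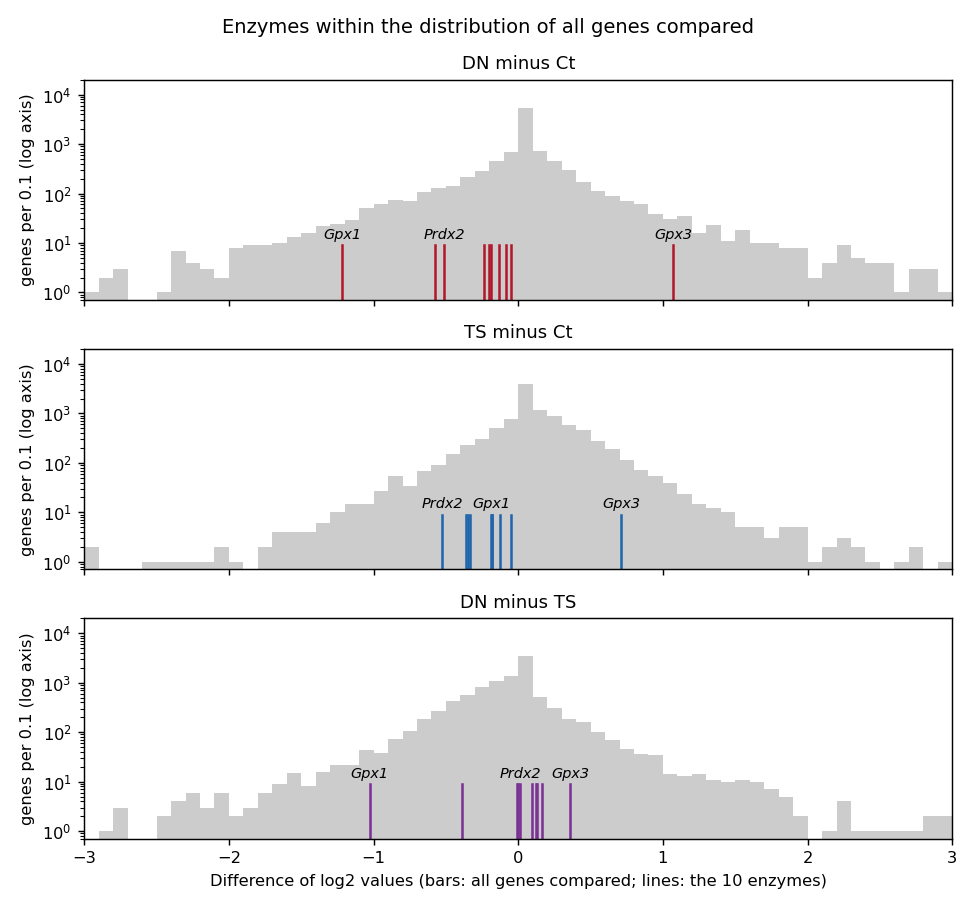
Number of genes per 0.1 of difference (vertical log axis; grey bars, all 10154 genes compared, drawn from -3 to 3) with the 10 enzymes as coloured lines, in 3 panels, DN against Ct, then TS against Ct, then DN against TS. Gpx1 lies in the lower tail in DN minus Ct (143rd lowest) and DN minus TS (159th lowest), Gpx3 in the upper tail in DN minus Ct (204th highest) and TS minus Ct (365th highest), and the tall bar at 0 holds the genes with equal values.

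The mitochondrial and cytosolic thioredoxin genes that supply the peroxiredoxins had unlike values. Txn2, the mitochondrial thioredoxin that reduces Prdx3, read 10.69 in DN, 11.13 in TS and 11.75 in Ct, or -1.05 and -0.62 from Ct. Its reductase Txnrd2 read 7.89 in DN, 8.78 in TS and 8.96 in Ct, or -1.06 and -0.18. Their cytosolic counterparts were close to Ct: Txn1 stood at 0.19 in DN and 0.08 in TS, Txnrd1 at 0.09 in each, and Srxn1, which repairs overoxidised peroxiredoxins, read 6.34 on every array.

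Over the 11 thioredoxin and glutaredoxin genes compared, of 13 listed, 4 were at least 1.5-fold lower and 1 higher in DN than in Ct. In TS 1 was lower and 1 higher. The medians were 0.00 in DN and 0.02 in TS. Among all genes, 5.53% were lower and 4.93% higher by that limit in DN, and 2.68% and 5.89% in TS. The mitochondrial glutaredoxin Glrx5, which serves iron-sulphur cluster assembly, stood at -1.01 in DN and -0.39 in TS. Glrx2, also listed as mitochondrial, stood at 0.02 in each. Sesn1, a stress-induced sestrin, stood at -0.93 in DN and 0.08 in TS, a gap of -1.01 between DN and TS. Txnip, which binds and inhibits thioredoxin, was the higher gene, reading 12.79 in DN, 12.58 in TS and 11.93 in Ct (0.86 and 0.65). Centring the arrays brought Txnip in TS to 0.52, under 1.5-fold.

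Grouped by place after the values were seen, 11 mitochondrial antioxidant genes, Sod2 and Prdx3 among them, had a median of -1.03 in DN minus Ct. There 7 were at least 1.5-fold lower, against 5.53% of all genes. In TS minus Ct their median was -0.39 with 5 lower, against 2.68% of all genes. None of the 11 was 1.5-fold higher. Of genes at least as bright as Sod3, 17.4% were 1.5-fold apart in either direction in DN minus Ct and 12.0% in TS minus Ct. A list of 14 cytosolic genes, with Sod1, Prdx1 and Prdx2, had medians of 0.00 and 0.08, with none past 1.5-fold in DN and 1 higher in TS, the glutathione synthesis gene Gclc (0.63). Under centring the cytosolic median in TS turned to -0.05, Gclc fell short of 1.5-fold and Prdx2 was past it downwards. Both counts depend on which genes were listed. The cytosolic list leaves out the transferases Gstm2 (2.59 in DN), Gstp1 (0.87) and Gsta4 (-0.80), and Gpx1 (-1.22), which sits in both places, while the mitochondrial list holds Gstk1 (-1.35), which is also peroxisomal. No difference between the compartments is drawn from them. Sod2 and Prdx3 differed less in DN than the group's median.

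Of 12 genes taken as a measure of mitochondrial content, also listed after the values were seen, 8 were at least 1.5-fold lower in DN. In TS 4 were lower, and none was higher in either, with medians of -0.72 in DN and -0.44 in TS. The TS count was 5 under centring, with a median of -0.57, and 3 with quantile normalization, with a median of -0.39. Of all genes, 5.53% were 1.5-fold lower in DN and 2.68% in TS. Citrate synthase (Cs) stood at -0.68 in DN and -0.26 in TS, the pore Vdac1 at -0.88 and -0.45, and the import receptor Tomm20 at 0.00 and 0.05. The chaperone Hspd1 (-0.10 in DN and 0.00 in TS) and the mitochondrial DNA-binding factor Tfam (0.07 and -0.22) were also within 1.5-fold. The part of mitochondrial content in the values of Sod2, Prdx3 and Gpx1 was not tested.

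**Figure D4:**
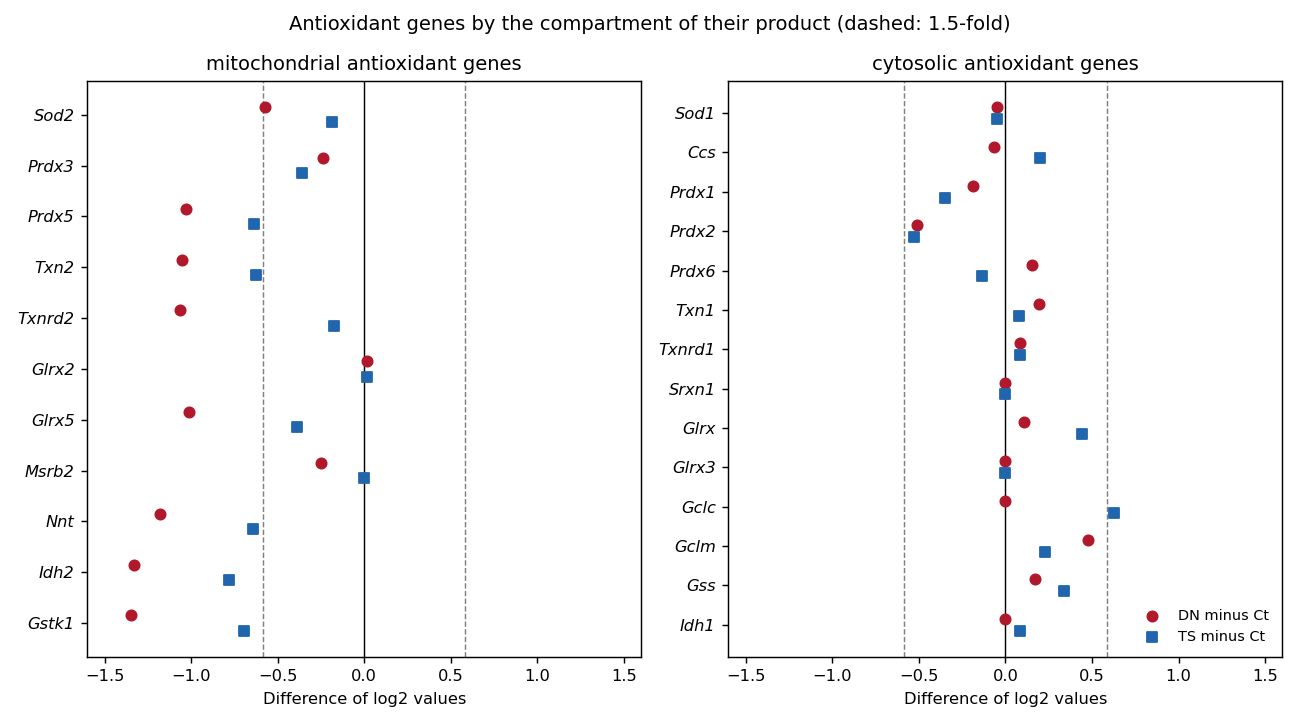
Difference of log2 values from Ct (horizontal axis) for 11 antioxidant genes with mitochondrial products (left) and 14 with cytosolic products (right), DN minus Ct as red circles and TS minus Ct as blue squares, with dashed lines at 1.5-fold. On the left 7 circles and 5 squares lie past the lower line, among them Txn2, Nnt, Idh2 and Gstk1. Of all genes, 5.53% lay past that line in DN and 2.68% in TS. On the right no point does, and Gclc in TS (0.63) is past the upper line. The genes were listed after the values were seen, without Gpx1, Gstm2, Gstp1 and Gsta4.

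Genes that supply or use glutathione, the substrate of the glutathione peroxidases, went both ways. Of 16 compared, out of 21 listed, 3 were at least 1.5-fold higher and 4 lower in DN than in Ct. Likewise 3 were higher and 4 lower in TS, and the medians were 0.00 and 0.05. The shares of all genes were 4.93% higher and 5.53% lower in DN, and 5.89% and 2.68% in TS. The count of higher genes in TS was 2 under centring, with a trend removed and with quantile normalization alike, since Gclc was then under the limit. The mitochondrial sources of NADPH, which keeps glutathione reduced, were lower: Idh2 stood at -1.33 in DN and -0.78 in TS, and the transhydrogenase Nnt at -1.18 and -0.64. The transferase Gstk1 of mitochondria and peroxisomes stood at -1.35 and -0.70, and Gsta4, which handles lipid aldehydes, at -0.80 and -0.92.

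The 3 higher genes in DN were other transferases, and in TS 2 transferases and Gclc. Gstm2, a cytosolic transferase of muscle, read 9.73 in DN, 8.53 in TS and 7.14 in Ct, or 2.59 and 1.39 above Ct, in the same order of pools as Gpx3. The membrane-bound Mgst1 was higher by 0.88 in DN and 0.97 in TS. Gstp1 stood at 0.87 in DN and -0.06 in TS, a gap of 0.93 between DN and TS. Gclc, the rate-limiting enzyme of glutathione synthesis, read 8.95 in DN, 9.57 in TS and 8.95 in Ct.

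Gpx1, Gpx3 and Gpx4 carry selenocysteine, and 14 genes of selenocysteine incorporation and of other selenoproteins, of 18 listed, were compared. In DN 1 was at least 1.5-fold lower and 1 higher than in Ct, with a median of 0.00. In TS again 1 was lower and 1 higher, with a median of 0.12. The shares of all genes were 5.53% lower and 4.93% higher in DN, and 2.68% and 5.89% in TS. Pstk, a kinase on the route to selenocysteine, read 7.61 in DN, 8.21 in TS and 8.81 in Ct (-1.19 and -0.60), and of the selenoproteins Selenok was higher by 0.62 in DN. The elongation factor Eefsec stood at 0.02 in DN and 0.66 in TS, and Msrb1, a selenium-containing methionine sulphoxide reductase, at -0.55 and 0.11. Under centring Eefsec in TS fell short of 1.5-fold (0.53), as it did with a trend removed (0.57). Centring turned the median in TS to -0.01 here, and likewise to -0.12 for the thioredoxin genes, -0.08 for the glutathione genes, -0.13 for the other peroxidase genes and -0.04 for the oxidant-producing genes, while the median of all genes came to -0.12.

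The main activator of the antioxidant response stood near Ct, while other regulators and targets differed between the pools. Nfe2l2, which encodes Nrf2, that activator, read 10.70 in DN, 10.61 in TS and 10.70 in Ct. Keap1, its inhibitor, read 9.42 in DN, 10.09 in TS and 9.71 in Ct, so that DN lay -0.67 below TS (-0.55 under centring). Of the 14 regulators and targets compared, of 15 listed, 2 were at least 1.5-fold higher and 1 lower in each comparison with Ct. Their medians were 0.11 in DN and 0.28 in TS. The shares of all genes were 4.93% higher and 5.53% lower in DN, and 5.89% and 2.68% in TS. Bach1, a repressor of the response, was higher by 0.60 in DN and 0.75 in TS, and Nfe2l1, a relative of Nrf2, by 0.79 in DN, with 0.29 in TS. With a trend on expression removed or quantiles matched, Bach1 in DN came to 0.58, under the limit, and with quantile normalization 2 genes were lower in DN.

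Nqo1, a quinone reductase used as a marker of Nrf2 activity, read 10.52 in DN, 8.87 in TS and 10.06 in Ct. TS was the low pool, -1.19 below Ct, and DN exceeded TS by 1.65. Hmox1, the heme oxygenase, went the other way, with 0.09 in DN and 0.73 in TS. Sirt3, a mitochondrial deacetylase that activates Sod2, read 7.36 in DN, 8.20 in TS and 8.49 in Ct (-1.13 and -0.28). Sod2 had that order of pools, as did Txn2, Idh2, Nnt and Cs. A link between Sirt3 and Sod2 was not tested. Ppargc1a, a coactivator of mitochondrial and antioxidant genes, stood at -0.56 in DN and -0.13 in TS.

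Of 11 oxidant-producing genes compared, out of 14 listed, 1 was at least 1.5-fold lower than Ct in DN and none higher. In TS 1 was lower and 1 higher by that limit. The medians were 0.00 in DN and 0.09 in TS. Among all genes, 5.53% were lower and 4.93% higher by that limit in DN, and 2.68% and 5.89% in TS. Ncf1, an organiser of the phagocyte NADPH oxidase, read 7.99 in DN, 8.12 in TS and 9.27 in Ct, or -1.28 and -1.15 from Ct. The other genes of that oxidase that were compared were not lower. Cybb stood at 0.14 in DN and 0.52 in TS, Rac2 at 0.35 and 0.42, Ncf4 at 0.00 and 0.13, and Cyba at 0.00 in both. Aox1, an aldehyde oxidase, was higher by 0.60 in TS, and by 0.47 under centring, 0.52 with a trend removed and 0.51 with quantile normalization.

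Set directly against TS, DN had 3 thioredoxin genes at least 1.5-fold lower and none higher, 2 glutathione genes lower and 2 higher, and 3 selenoprotein genes lower and none higher. Among regulators and targets 3 were lower and 1, Nqo1, higher. All genes leaned the same way in this comparison, with 5.93% lower and 3.2% higher. Sesn1 (-1.01), Txnrd2 (-0.89), Sirt3 (-0.85) and Ehhadh (-1.17) were among the lower genes. The lean depended on the scaling: centring the arrays took 8 of the lower genes under the limit, Glrx5, Gstk1, Gclc, Msrb1, Eefsec, Pstk, Keap1 and Hmox1. It left 2 thioredoxin genes lower, 2 glutathione genes higher, 1 selenoprotein gene higher, and 2 regulators or targets higher with 1 lower. Within these lists more were then higher than lower, while centring moved the median of all genes to 0.12. More stayed lower under the other scalings. With a trend removed, 3 thioredoxin genes, 1 selenoprotein gene and 2 regulators or targets were lower. Higher were 2 glutathione genes and 1 regulator or target. Quantile normalization gave the same counts, save that 2 thioredoxin genes were lower. Outside these lists Ehhadh (-1.04), Msra (-0.60) and the member Gpx1 (-0.90) stayed lower under centring, and Abcd3 (0.63) was higher.

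Markers of other cells also differed between the pools. Of 6 adipocyte markers 3 were at least 1.5-fold higher in DN and 3 in TS. Their summed level was 12.27 in DN, 11.99 in TS and 11.78 in Ct (log2). That is the order of Gpx3, which adipose tissue also makes, but of the single markers only Adipoq and Cidec shared it. Cfd and Plin1 were highest in TS, Lep read the same in DN and TS, and Fabp4 was highest in Ct (11.38). Of 6 erythroid markers listed, 4 had a probe set and 2 of these, Slc4a1 and Epb42, averaged below the limit for comparison; the summed level of the 4 was 10.74 in DN, 11.62 in TS and 11.09 in Ct, so TS was the highest there, whereas Prdx2 read alike in DN and TS. None of 9 macrophage markers was 1.5-fold apart in DN and 4 were higher in TS (2 under centring, 3 with a trend removed or quantile normalization), with sums of 12.72 in DN, 13.07 in TS and 12.59 in Ct. Of 5 endothelial markers with a probe set, out of 6 listed, 2 were 1.5-fold lower in DN and 1 in TS, with sums of 11.79 in DN, 12.02 in TS and 12.27 in Ct. None of 5 neutrophil markers was bright enough to compare, 1 of 5 fibroblast markers was higher in TS and 1 of 5 smooth muscle markers lower in DN (2 with a trend removed). Slow-fibre markers had medians of -0.56 in DN and -0.30 in TS, and fast-fibre markers of 1.58 and 1.51. The part of these cells and fibre types in the enzymes' values was not tested.

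By the distance between pairs of differences (DN minus Ct, TS minus Ct), which is fixed by only 3 arrays, the genes nearest to Gpx1 were Eepd1 (distance 0.01), Tppp (0.05) and Endog (0.05). Eepd1 read 8.35 in DN, 9.37 in TS and 9.56 in Ct. Only 4 genes lay within 0.1 of Gpx1 and 6 within 0.1 of Gpx3. The nearest to Gpx3 were Cemip2 (0.03), Fstl3 (0.06) and Popdc3 (0.07); Cemip2 read 9.83 in DN, 9.45 in TS and 8.77 in Ct.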

How the data were processed

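Soleus RNA of 3 pools (DN, TS and Ct, 6 rats each) was read on 1 array per pool. The deposited log2 values are RMA values from Affymetrix Expression Console in a core-exon analysis, per the labels and processing notes of the submitters. The version, the annotation, the genome build and the base of the logarithm are not stated there; base 2 was taken from the range of the values (1.77 to 13.99). The series text mentions a different number of arrays from the 3 used here.

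Of 29170 probe sets, 15310 carried 1 symbol in the platform annotation, 323 several and 13537 none; 15279 of the first had their gene identifier in the GRCr8 gene table. The brightest probe set by mean of the 3 arrays stood for a gene, and genes under the 30th percentile of that mean were left out. Differences of log2 values were taken; with 1 array per group no p-value was computed, and the number of arrays limits the precision. The members and the gene lists were chosen with earlier results of these data known. Named genes were the 10 members and up to 4 genes past 1.5-fold with the largest differences per list and comparison. Nfe2l2, Keap1, Txnip and Ppargc1a, and the 3 nearest genes to each member past 1.5-fold, were also named. Other genes were named as markers, as relatives of a member, by compartment or as parts of the phagocyte oxidase. These (Gpx7, Gpx8, Prdx4, Prdx6, Ccs, Txn1, Txnrd1, Srxn1, Cs, Vdac1, Tomm20, Cybb, Rac2, Ncf4 and Cyba among them) were chosen after their values were seen. Lists matched through older symbols and gene identifiers. The 2 lists by compartment and the mitochondrial content list were drawn up after the values were seen. Peroxiredoxins and glutathione transferases are close relatives, and their probe sets may share signal.

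Alternatives were centring, 32 added to the linear values, quantile normalization, removal of a loess trend (span 0.3), filters, handling of probe sets, and a stricter (2-fold) and a looser (0.32 log2) limit. The calculation was checked on simulated data. Python 3.11.15, numpy 2.4.6, pandas 2.3.3, statsmodels 0.14.6 and matplotlib 3.10.9 were used.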

Additional observations from a re-analysis of the deposited data

How the results depend on the processing

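Among the 10 enzymes, no difference past 1.5-fold changed direction under any alternative run. Gpx1 in DN minus Ct ranged from -1.22 to -1.19 and Gpx3 from 1.02 to 1.07. Centring each array moved the median of the enzymes to -0.32 in TS minus Ct and to 0.18 in DN minus TS, since it shifts the TS array by 0.13 relative to Ct and also took Gpx3 in TS under 1.5-fold and Prdx2 past it. Centring moved 20 of 30 enzyme differences by over 0.1 or across the limit, all of them in comparisons with TS (Gpx4 in DN minus TS turned from -0.01 to 0.11), and removal of the trend moved 1, Sod2 in DN minus Ct. At a looser limit of 0.32 (log2), 4 enzymes were past it in DN minus Ct, 5 in TS minus Ct and 3 in DN minus TS. Of all genes, 19.3%, 24.0% and 23.9% were past that limit in the same comparisons. At 2-fold 0 enzymes were past the limit in TS minus Ct, against 2.06% of all genes, and the limit itself sets the count. Quantile normalization, 32 added on the linear scale, the filters (1 of them, at the mean of Sod3, chosen after seeing the data) and the handling of probe sets kept all counts of enzymes past 1.5-fold. No paired analysis was possible because each group has 1 array, and for the same reason no array could be left out. With 1 pool per group, the spread between rats is unknown.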
